A study of Mus musculus with 23 samples.

Results

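The miR-99/100 and miR-125 families were followed in small RNA of mouse retina through their 6 locus rows, mir-99a, mir-99b, mir-100, mir-125a, mir-125b-1 and mir-125b-2. Members were the mature rows that carry these names, 6 of the 903 mature rows counted, and all 6 were present. The 23 libraries, 1 per retina at postnatal day 90, covered 5 groups. Wild-type (WT) C57B retinas gave 2 libraries. All other retinas came from heterozygous P23H+/- KI mice, which carry 1 mutant rhodopsin allele in the mouse gene and model a human retinitis pigmentosa. They were left uninjected (5 libraries), given saline (2 libraries), or treated with DNA nanoparticles holding genomic human rhodopsin (human gRHO, 3 libraries) or genomic mouse rhodopsin (mouse gRho, 11 libraries). The sample titles were read as animal and eye, which is an inference, and eyes of 1 animal were summed. The groups then held 2 WT and 3 uninjected mice, 1 mouse given saline, 2 given human gRHO and 7 given mouse gRho.

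A miRNA is cut from a hairpin with a 5p and a 3p arm, and bases 2 to 8 of the mature strand, the seed, pair with target messages. The miR-99/100 family is known for targets in the mTOR growth pathway, and the miR-125 family, related to the worm developmental timing gene lin-4, for repressing Lin28. In the mouse genome a miR-99/100 gene, a let-7 gene and a miR-125 gene stand side by side in the same order in several places, and members of both families have been described among the miRNAs enriched in Mueller glia of the retina.

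The mature sequences below, from RefSeq (GRCm38.p6), show which rows reads can and cannot separate. They are written 5′ to 3′ with the seed in capitals. The first 3 share the miR-99/100 seed, the next 3 the miR-125 seed, and the last 3 are the other arms of the miR-125 hairpins.
miR-99a-5p: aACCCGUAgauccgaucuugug
miR-99b-5p: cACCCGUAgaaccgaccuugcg
miR-100-5p: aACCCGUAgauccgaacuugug
miR-125a-5p: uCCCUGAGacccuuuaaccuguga
miR-125b-5p: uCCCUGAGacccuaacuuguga
miR-351-5p: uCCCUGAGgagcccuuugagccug
miR-125a-3p: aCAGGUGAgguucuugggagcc
miR-125b-1-3p: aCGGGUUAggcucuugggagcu
miR-125b-2-3p: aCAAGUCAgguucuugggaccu

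The hairpins of mir-125b-1 and mir-125b-2 give the same 5p strand, so that a full-length read of miR-125b-5p fits both loci, while their 3p strands differ at 5 of 22 positions and in the seed. miR-100-5p and miR-99a-5p are separated by a single base, A16U, counted from the 5′ end with the base of miR-100-5p first. miR-99b-5p differs from each of them at 4 positions. miR-125a-5p and miR-125b-5p share their first 13 bases. Of 1679 mature mouse miRNAs in the sequence table, 3 carry the seed ACCCGUA, all of them of this family, and 5 carry CCCUGAG, among them miR-351-5p of an X-linked locus outside the family. The 3p seeds are less alike. miR-99a-3p and miR-99b-3p share AAGCUCG, and the 3p strands of the miR-125 loci have 3 different seeds.

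The rows name a locus and no arm, and how a read that fits several loci was assigned is not given in the sources used here. A separate class of crossmapped miRNA reads held 5.52% to 17.9% of all miRNA reads per library. The mature rows together held a median of 13.4% of the reads classed as mature miRNA (10.4% to 19.5%). Each value below is therefore that of the row as counted, and it may belong to either arm and may not be the whole of either.

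By name, the loci form 3 clusters in GENCODE M21 (GRCm38), all on the plus strand. On chromosome 16, mir-99a (chr16:77598936-77599000) and mir-125b-2 (chr16:77646273-77646343) lay 47.3 kb apart with let-7c-1 between them, in introns of the noncoding gene Mir99ahg. On chromosome 9, mir-100 (chr9:41531425-41531504) and mir-125b-1 (chr9:41581926-41582002) lay 50.4 kb apart around let-7a-2, in introns of the noncoding gene 3110039I08Rik. On chromosome 17, mir-99b (chr17:17830188-17830257) and mir-125a (chr17:17830812-17830879) lay 555 bases apart around let-7e within Spaca6, a gene for a sperm protein. mir-99b was intronic there, and mir-125a touched an exon of 1 of the 3 Spaca6 transcripts that span it.

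Libraries held 5968388 to 16048954 reads of mature miRNA, and levels are given as CPM, the counts of a row scaled to a library total of 1e6 of these reads. The defining retinal rows, listed by cell type, were present in every library. How specific each list is to its cell type was not tested. Photoreceptor rows (mir-183, mir-96 and mir-182) summed to 52.9 to 1101 CPM, neuronal rows (mir-124 copies) to 10.6 to 498 CPM and Mueller glia rows (mir-204 and mir-9 copies) to 2726 to 13274 CPM. The right retina of mouse gRho mouse 1 was the lowest library for all 3 lists. The only library of uninjected mouse 2 was next lowest for each, at 198, 97.3 and 4594 CPM. Ribosomal RNA made up 3.00% to 6.20% of 6 libraries, among them those of uninjected mice 2 and 3, and at most 0.878% of the others. The library of WT mouse 2 stood apart in composition, with a TMM scaling factor of 0.734 against 0.897 to 1.26 in the other mice. None of the 6 member rows jumped between separate levels, with largest gaps of 0.37 to 1.18 (log2) between neighbouring libraries, and all 6 passed the filter of 10 counts in 3 mice.

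The miR-125 rows and mir-99b were counted more deeply than mir-100 and mir-99a. Over the 15 mice, mir-125b-2 averaged 73.0 ± 15.8 CPM (SD), the highest of the 6 and rank 66 among the 903 mature rows. mir-99b followed at 45.4 ± 14.3 CPM (rank 81), then mir-125b-1 at 38.8 ± 8.4 CPM (rank 88) and mir-125a at 33.7 ± 5.8 CPM (rank 96). The ranges of these 3 neighbours over the mice overlapped. Within mice, mir-99b and mir-125b-1 each lay above mir-125a in every mouse but WT mouse 2, and this order was not tested. mir-100 averaged 4.54 ± 1.27 CPM (rank 219) and mir-99a 1.63 ± 0.86 CPM (rank 285).

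Counting depth followed the same order. The median library held 669 reads of mir-125b-2 and 464 of mir-99b, against 45 of mir-100 and 15 of mir-99a, whose counts ran from 1 to 35. The spread between mice was 17.0% of the mean for mir-125a, 28.0% for mir-100, 31.6% for mir-99b and 52.7% for mir-99a. It did not follow depth in every row. With such low counts, small differences in mir-99a and mir-100 were not detectable.

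Within a cluster the partners were counted unequally. mir-99b stood at 1.33 ± 0.35 times mir-125a (n = 15), whereas mir-100 stood at 0.123 ± 0.046 times mir-125b-1 and mir-99a at 0.0226 ± 0.0102 times mir-125b-2. The copies of miR-125b kept a steadier ratio. mir-125b-2 was 1.90 ± 0.20 times mir-125b-1, and this ratio ran from 1.503 in the saline mouse to 2.21 in uninjected mouse 3. Rows of different arms or partly assigned reads cannot be compared as amounts of miRNA, and these ratios describe the rows.

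**Figure D1:**
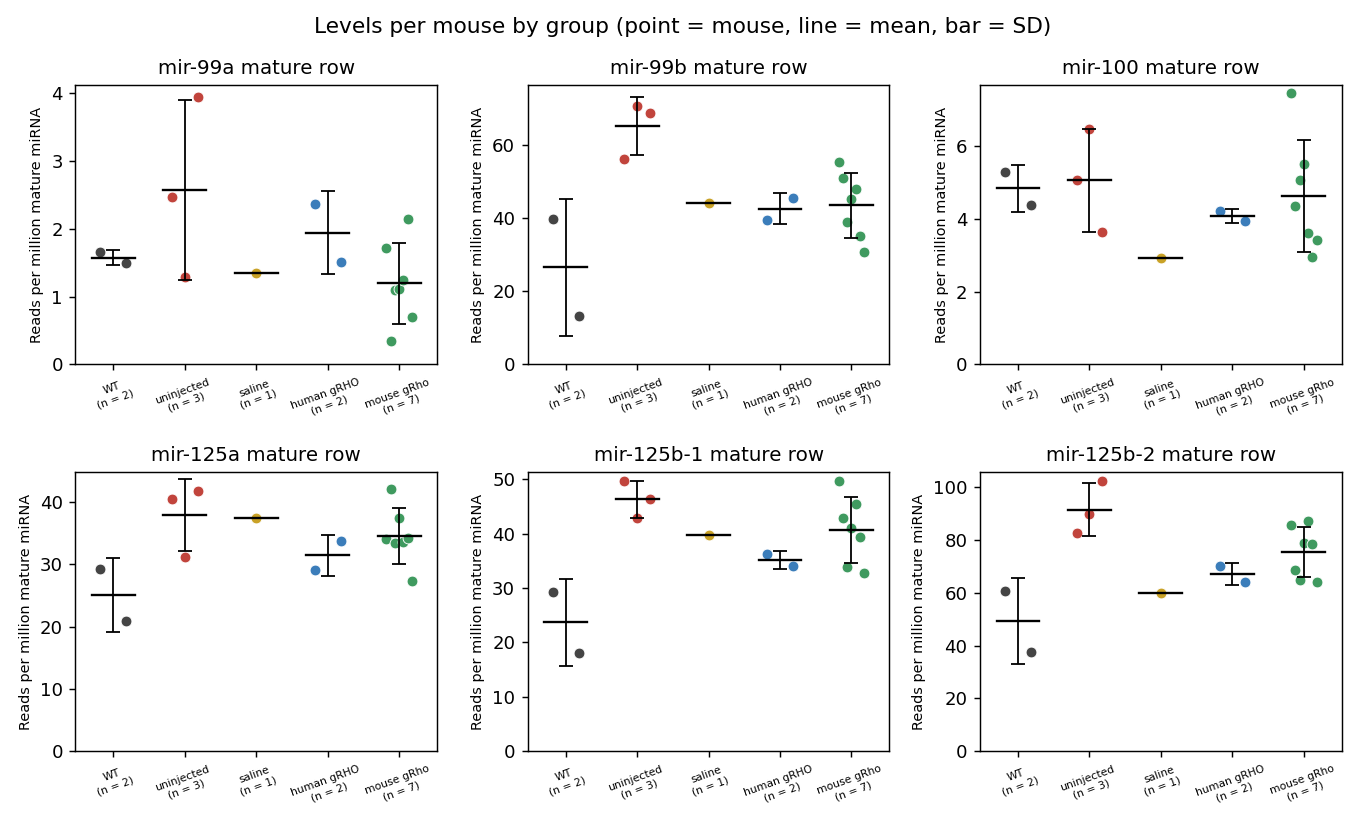
Level of each member row (vertical axis, CPM, scale differs by panel) in every mouse of the 5 groups. Points are mice, lines are means and bars are SD (none for the single saline mouse); uninjected mice lie highest for mir-99b, from 56.0 to 70.6, and WT mouse 2 lies lowest for mir-99b, mir-125a, mir-125b-1 and mir-125b-2.

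The comparison of uninjected P23H+/- KI with WT retinas asked whether the families differ with the rhodopsin mutation. By the edgeR quasi-likelihood test with an adjusted threshold of 0.05 (3 uninjected and 2 WT mice), 0 of the 6 rows were called, against 1.57% of all 382 rows tested, and DESeq2 called 0 of the 6 as well. At an unadjusted p under 0.05 stood 2 of the 6 and 63 of the 382. The fitted difference was above 0 for 5 of the 6 and had a median of 0.37 (log2), beside -0.09 over all rows.

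mir-99b, of the chromosome 17 cluster, showed the largest difference of the 6. It measured 39.8 and 13.3 CPM in the WT mice and 56.0, 70.6 and 68.7 CPM in uninjected mice 1 to 3. The groups did not overlap, and the WT mice differed more from each other than the uninjected mice did. The log2 fold change was 0.93 (SE 0.31, edgeR adjusted p = 0.153).

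mir-125b-1 measured 29.3 and 18.1 CPM in WT and 49.7, 43.0 and 46.3 CPM in uninjected mice, with a log2 fold change of 0.57 (SE 0.24, edgeR adjusted p = 0.242). Its second copy, mir-125b-2, measured 60.8 and 37.6 CPM in WT and 82.6, 89.7 and 102 CPM in uninjected mice, with a log2 fold change of 0.48 (SE 0.23, edgeR adjusted p = 0.299). Neither copy overlapped between these groups, and for both WT mouse 2 was the lower of the WT mice. mir-125a, which shares the seed of both copies, measured 29.2 and 20.9 CPM in WT and 40.6, 31.2 and 41.8 CPM in uninjected mice, with a log2 fold change of 0.18 (SE 0.24, edgeR adjusted p = 0.712).

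The low rows showed no separation. mir-100 measured 5.29 and 4.36 CPM in WT and 5.07, 6.45 and 3.62 CPM in uninjected mice, with a log2 fold change of -0.37 (SE 0.40, edgeR adjusted p = 0.647). mir-99a measured 1.66 and 1.495 CPM in WT and 2.48, 1.29 and 3.94 CPM in uninjected mice, with a log2 fold change of 0.26 (SE 0.62, edgeR adjusted p = 0.825). Both ranges overlapped, and the 95% interval of mir-99a ran from -1.04 to 1.57.

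Every uninjected mouse lay above both WT mice in 4 of the 6 rows in CPM (mir-99b, mir-125a, mir-125b-1 and mir-125b-2), and so did 22.5% of all tested rows. After TMM scaling, which evens out composition, 3 of the 6 did so (without mir-125a), against 13.1% of all rows. Without this scaling the median difference of all rows was 0.34 in place of -0.09, the members' median was 0.81 and mir-100 turned to 0.06.

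These values depended on the WT mice. Leaving out either leaves a group of 1 mouse, which the fit assumes to vary like the other groups. Without WT mouse 1, which leaves the library that stands apart, the log2 fold change of mir-99b was 1.76 (edgeR adjusted p = 0.00127) and that of mir-125b-1 was 0.83 (adjusted p = 0.0332), and 60 of all rows were called. Without WT mouse 2, the values were 0.55 (adjusted p = 0.712) and 0.50 (adjusted p = 0.685), and mir-125b-2 stood at 0.43. With the WT libraries taken as eyes of 1 mouse, which the titles allow, mir-99b stood at 1.13 (adjusted p = 0.0612).

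Of the marker lists, those for epithelium and muscle did not overlap between these groups. The 4 rows listed for pigment and surface epithelium summed to 67.8 and 82.4 CPM in the WT libraries and to 89.7 to 134 CPM in the uninjected ones. The 6 muscle rows, 3 of which jumped between levels, summed to 46146 and 92779 CPM in WT and to 860 to 39448 CPM in uninjected libraries. The photoreceptor, neuron, Mueller glia, vessel, red blood cell and leukocyte lists overlapped, the Mueller glia rows other than the members at 5988 and 8894 CPM in WT and 4594 to 10247 CPM in uninjected libraries. The part of these lists and of ribosomal RNA in the differences was not tested, and in bulk retina fewer cells of a type and less RNA per cell cannot be told apart.

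Treated retinas were also set against WT. In mouse gRho mice, mir-99b ran from 30.8 to 55.3 CPM (median 45.0), mir-125a from 27.3 to 42.2 (median 34.0), mir-125b-1 from 32.7 to 49.6 (median 41.1) and mir-125b-2 from 64.2 to 87.0 CPM (median 78.4). mir-100 ran from 2.95 to 7.44 CPM (median 4.33) and mir-99a from 0.348 to 2.14 CPM (median 1.11). mir-99b and mir-125a overlapped with the WT values, while the lowest mir-125b-1 and mir-125b-2 values lay above those of WT mouse 1, at 29.3 and 60.8 CPM. All 7 mice thus lay above both WT mice in 2 of the 6 rows, and in 9.95% of all tested rows. After TMM scaling this held for 3 of the 6, with mir-125a, and for 8.38% of all rows.

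Against WT, 0 of the 6 rows passed the threshold (edgeR quasi-likelihood and DESeq2, n = 7 and 2 mice), beside 3.14% of all rows. At an unadjusted p under 0.05 stood 1 of the 6, mir-125b-1, and 69 of the 382. Its log2 fold change was 0.56 (SE 0.21, edgeR adjusted p = 0.173). The values were 0.54 (SE 0.28) for mir-99b, 0.40 (SE 0.21) for mir-125b-2, 0.23 (SE 0.21) for mir-125a, -0.31 (SE 0.35) for mir-100 and -0.69 (SE 0.54) for mir-99a, with adjusted p of 0.314 to 0.634. This comparison shares its WT mice with the one above. When WT mouse 1 was left out and WT mouse 2 was again assumed to vary like the other groups, mir-99b stood at 1.31 (adjusted p = 0.00566) and mir-125b-1 at 0.78 (adjusted p = 0.0306), with 64 rows called in all. Without WT mouse 2 they stood at 0.12 (adjusted p = 0.906) and 0.46 (adjusted p = 0.615).

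All 13 P23H+/- KI mice, uninjected or injected, lay above both WT mice for mir-125b-1, the lowest of them at 32.7 CPM against 29.3 CPM in WT mouse 1. In CPM this held for 1 of the 6 rows and 5.76% of all rows. After TMM scaling it held for mir-125b-1 and mir-125b-2, 2 of the 6, and 3.93% of all rows. For mir-125b-2 in CPM the saline mouse, at 59.9, lay just below WT mouse 1 at 60.8.

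miR-351-5p has the seed of miR-125, and its locus row mir-351 was the 1 called row of 5 related rows tested. It measured 27.3 CPM (438 reads) in WT mouse 2, 1.04 CPM (10 reads) in WT mouse 1 and at most 1.58 CPM in any P23H+/- KI mouse. Its log2 fold change against WT was -4.18 (SE 0.88, edgeR adjusted p = 0.0278) in uninjected and -4.44 (SE 0.66, adjusted p = 0.00201) in mouse gRho mice. The high value came from the single library of WT mouse 2. The row was tested only because its largest gap, 3.40 (log2), fell just short of the 3.5 at which such rows were set aside as jumping between levels. None of the let-7 rows of the 3 clusters (let-7c-1, let-7a-2 and let-7e, of a family known for developmental timing) was called in any comparison. Nor was mir-10b, a relative of miR-99/100 with a different seed.

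**Figure D2:**
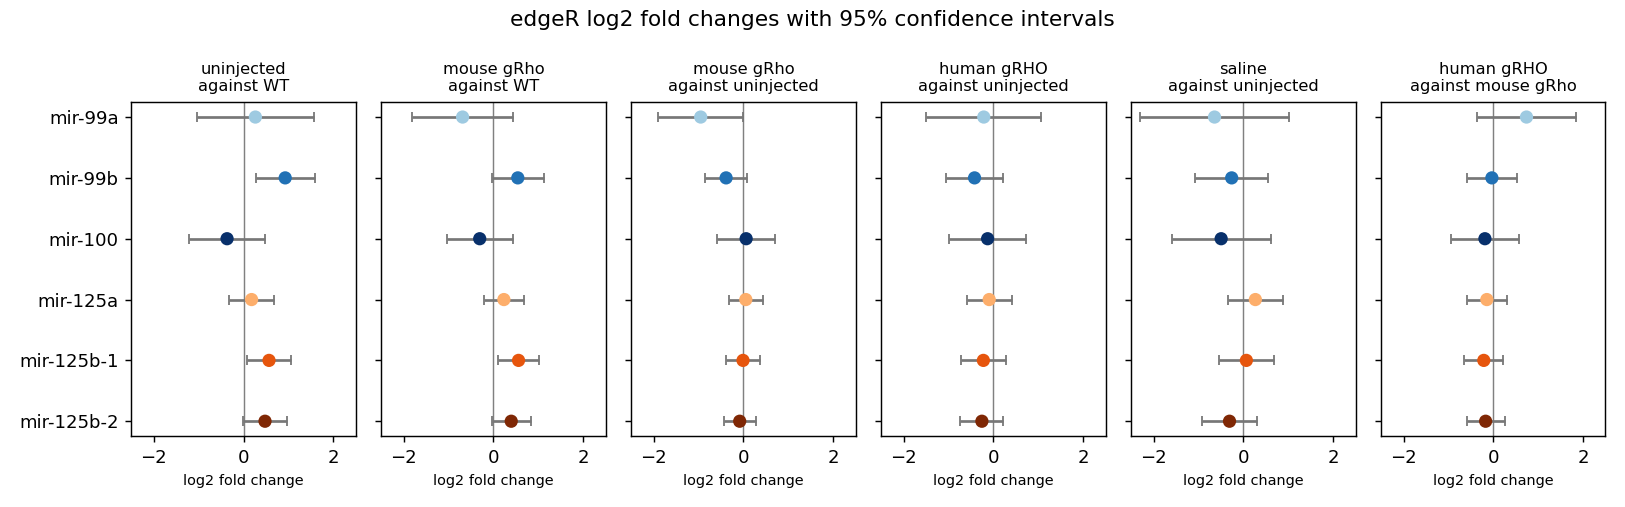
Fitted log2 fold changes (horizontal axis) of the 6 member rows (vertical axis) in 6 comparisons between groups, with points for edgeR estimates and bars for 95% confidence intervals. The estimates of mir-99b, mir-125b-1 and mir-125b-2 lie above 0 against WT, from 0.40 to 0.93, and no row passed the adjusted threshold in any panel.

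The comparison of mouse gRho with uninjected P23H+/- KI retinas asked whether treatment moves the families. The edgeR test called 0 of the 6 rows and 0% of all 382 rows (n = 7 and 3 mice), and DESeq2 called 0 of either. At an unadjusted p under 0.05 stood 1 of the 6, mir-99a, and 18 of the 382. The members' median difference was -0.05 (log2), beside 0.08 over all rows, with 2 above 0 and 4 below.

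mir-99b was lower in all 7 mouse gRho mice than in any uninjected mouse, 30.8 to 55.3 against 56.0 to 70.6 CPM. Its log2 fold change was -0.39 (SE 0.22, edgeR adjusted p = 0.913). Such separation was seen in 1 of the 6 rows and 2.62% of all rows in CPM, and in 1 of the 6 and 2.09% after TMM scaling. All 10 injected mice, saline and human gRHO included, also lay below every uninjected mouse for mir-99b, 1 of the 6 rows, and 1.83% of all rows did so on either scale. Single retinas overlapped: uninjected libraries ran from 45.7 to 92.6 CPM and mouse gRho libraries from 30.8 to 64.9 CPM.

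Uninjected mice 2 and 3, at 70.6 and 68.7 CPM, were rich in ribosomal RNA and uninjected mouse 1, at 56.0 CPM, was not. Without the 6 libraries rich in ribosomal RNA the difference of mir-99b was -0.22. That fit left uninjected mouse 1, the lowest uninjected mouse for mir-99b, alone in its group. The part of ribosomal RNA and that of the mouse left in cannot be told apart. Its neighbour in the chromosome 17 cluster did not separate the groups: mir-125a measured 31.2 to 41.8 CPM in uninjected and 27.3 to 42.2 CPM in mouse gRho mice, with a log2 fold change of 0.05 (SE 0.18). The ratio of mir-99b to mir-125a was 1.76 ± 0.45 (SD, n = 3) in uninjected, 1.25 ± 0.20 (n = 7) in mouse gRho and 1.00 ± 0.51 (n = 2) in WT mice, and this ratio was not tested.

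mir-99a had the largest difference, -0.95 (SE 0.45, edgeR adjusted p = 0.913), with a 95% interval from -1.90 to -0.01. It rested on few reads. Uninjected mouse 2, at 1.29 CPM, lay within the mouse gRho range, and without uninjected mouse 3 the value was -0.63. mir-125b-1, mir-125b-2 and mir-100 differed by less than their standard errors, mir-125b-1 by -0.01 (SE 0.18), mir-125b-2 by -0.08 (SE 0.17) and mir-100 by 0.06 (SE 0.31). For mir-125b-1 the 95% interval ran from -0.38 to 0.36 and for mir-125b-2 from -0.44 to 0.28.

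Human gRHO mice gave 39.5 and 45.5 CPM for mir-99b, 29.2 and 33.7 CPM for mir-125a, 36.3 and 34.0 CPM for mir-125b-1, and 70.0 and 64.2 CPM for mir-125b-2. The low rows stood at 4.21 and 3.94 CPM for mir-100 and at 2.37 and 1.51 CPM for mir-99a. Against uninjected mice, which these comparisons share, 0 of the 6 rows and 0% of all rows were called by edgeR (n = 2 and 3 mice), and DESeq2 called 0. At an unadjusted p under 0.05 stood 0 of the 6 and 10 of the 382. All 6 fitted differences were below 0, from -0.42 (SE 0.30) for mir-99b and -0.26 (SE 0.23) for mir-125b-2 to -0.09 (SE 0.24) for mir-125a, with adjusted p of 0.930 to 0.993. Their median was -0.22, beside 0.01 over all rows.

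The saline mouse, the control for injection, measured 44.0 CPM for mir-99b, 37.4 for mir-125a, 39.8 for mir-125b-1, 59.9 for mir-125b-2, 2.93 for mir-100 and 1.35 CPM for mir-99a. With 1 mouse the test assumes that it varies like the others. It called 0 of the 6 rows and 0% of all rows against uninjected mice (edgeR, n = 1 and 3; DESeq2 also 0), with 0 of the 6 and 13 of the 382 at an unadjusted p under 0.05. Differences ran from -0.65 (SE 0.79) for mir-99a to 0.27 (SE 0.29) for mir-125a, with a median of -0.29 beside -0.00 over all rows.

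The human and mouse constructs were compared with each other in human gRHO against mouse gRho mice. Again 0 of the 6 rows and 0% of all rows were called (edgeR, n = 2 and 7; DESeq2 also 0), and 0 of the 6 and 11 of the 382 stood at an unadjusted p under 0.05. mir-99a was highest at 0.74 (SE 0.52) and the other rows lay between -0.21 and -0.03, with adjusted p of 0.997 for all 6. Their median was -0.16, beside -0.04 over all rows. The 95% interval of mir-125b-2 ran from -0.60 to 0.25 and that of mir-99b from -0.59 to 0.52. Differences within these limits were compatible with the data.

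The retinas of a single mouse showed how far these rows vary without any difference in genotype or treatment group. In 8 mice both eyes were sequenced, and the test of right against left with a term for the mouse called 0 of the 6 rows and 0% of 330 rows (edgeR; DESeq2 also 0). At an unadjusted p under 0.05 stood 0 of the 6 and 9 of the 330. All 6 differences were above 0, from 0.02 (SE 0.13) for mir-125b-2 to 0.36 (SE 0.24) for mir-99a, each with an adjusted p of 0.952. The median was 0.12, beside -0.02 over all rows.

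The right-to-left ratio was largest in uninjected mouse 3 for mir-99b, mir-125a and mir-125b-2, in mouse gRho mouse 1 for mir-125b-1, and in mouse gRho mouse 2 for mir-100 and mir-99a. In uninjected mouse 3, mir-99b measured 92.6 CPM in the right and 45.7 CPM in the left retina, mir-125b-2 measured 130 and 75.6 CPM, and mir-125a 53.8 and 30.3 CPM. Several marker lists also differed between these retinas: in the same order, the muscle rows summed to 39448 and 860 CPM, the red blood cell rows to 1078 and 2285 CPM and the epithelial rows to 132 and 89.7 CPM. Photoreceptor rows summed to 635 and 565 CPM and Mueller glia rows to 9654 and 8123 CPM. In mouse gRho mouse 1, mir-125b-1 measured 64.8 CPM on the right and 34.6 CPM on the left, mir-125b-2 measured 108 and 63.8 CPM, and mir-100 measured 10.2 and 4.73 CPM. The right retina of that mouse was also the one with the lowest photoreceptor, neuron and Mueller glia rows. They summed to 52.9, 10.6 and 2726 CPM, against 943, 423 and 11675 CPM on the left. Its epithelial and vessel rows were the highest, 244 against 90.4 and 2888 against 1238 CPM. The part of these lists in the differences between eyes was not tested.

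Over the 8 mice, the right-to-left ratio had a median of 0.963 for mir-125b-2 (0.826 to 1.72), 1.02 for mir-125b-1 (0.925 to 1.87), 1.06 for mir-125a (0.928 to 1.77) and 1.12 for mir-99b (0.896 to 2.03). The low rows were wider, from 0.766 to 2.64 for mir-100 and from 0.749 to 2.54 for mir-99a. The right eye was higher in 6 of 8 mice for mir-99a, mir-99b and mir-125a, in 5 for mir-125b-1 and in 3 for mir-100 and mir-125b-2.

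**Figure D3:**
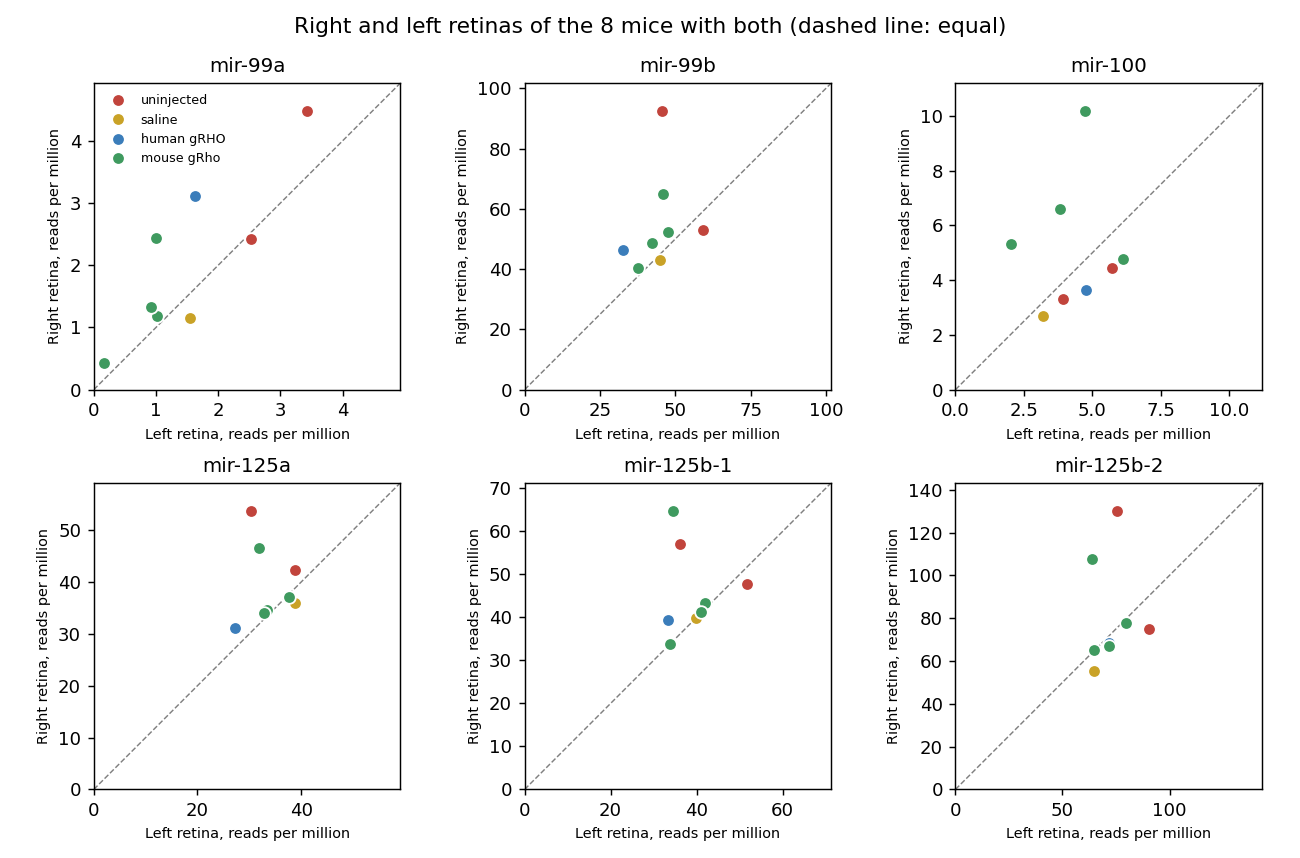
Right (vertical axis) against left retina (horizontal axis) of the 8 mice with both, in CPM, 1 panel per member row and 1 point per mouse, colored by group, with a dashed line of equality. For mir-99b and mir-125b-2 the point of uninjected mouse 3 lies far above the line (92.6 against 45.7, and 130 against 75.6), and for mir-125b-1 and mir-125b-2 so does mouse gRho mouse 1.

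Each locus could also have a precursor row, a class the selection of the members did not use; the hairpin precursor is what the enzyme Dicer cuts, and how a read was classed as precursor is not stated in the labels. The miR-125 loci had more reads in this class than their miR-99/100 partners, most clearly mir-125a against mir-99b. mir-125a had 2352 precursor reads over all libraries, 28.7% of its mature row and 11.3% of all 20784 precursor reads, which made it rank 3 of 231 precursor rows. mir-125b-2 followed at rank 4 with 758 reads, 4.41% of its mature row, and mir-125b-1 was at rank 17 with 267 reads, 2.85%. mir-99a, mir-100 and mir-99b had 5, 14 and 1 precursor reads, or 1.27%, 1.27% and 0.00925% of their mature rows. On chromosomes 9 and 16 much of the gap in reads thus went with the lower mature counts of the partners.

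Precursor reads of mir-125a were 30.1% and 31.0% of its mature row in WT mice, 25.2%, 36.7% and 32.8% in uninjected mice, 21.4% in the saline mouse, 33.2% and 39.5% in human gRHO mice, and 21.6% to 33.5% (median 27.5%) in mouse gRho mice. The WT values lay within the uninjected range, the uninjected and mouse gRho ranges overlapped, and the saline mouse was the lowest. For mir-125b-2 the share was 2.48% and 3.58% in WT and 2.88% to 4.55% in uninjected mice, and for mir-125b-1 it was 3.45% and 4.95% in WT and 2.25% to 4.0% in uninjected mice. These mir-125b shares rested on 10 to 94 precursor reads per mouse, those of mir-125a on 50 to 270, and they were given without a test.

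**Figure D4:**
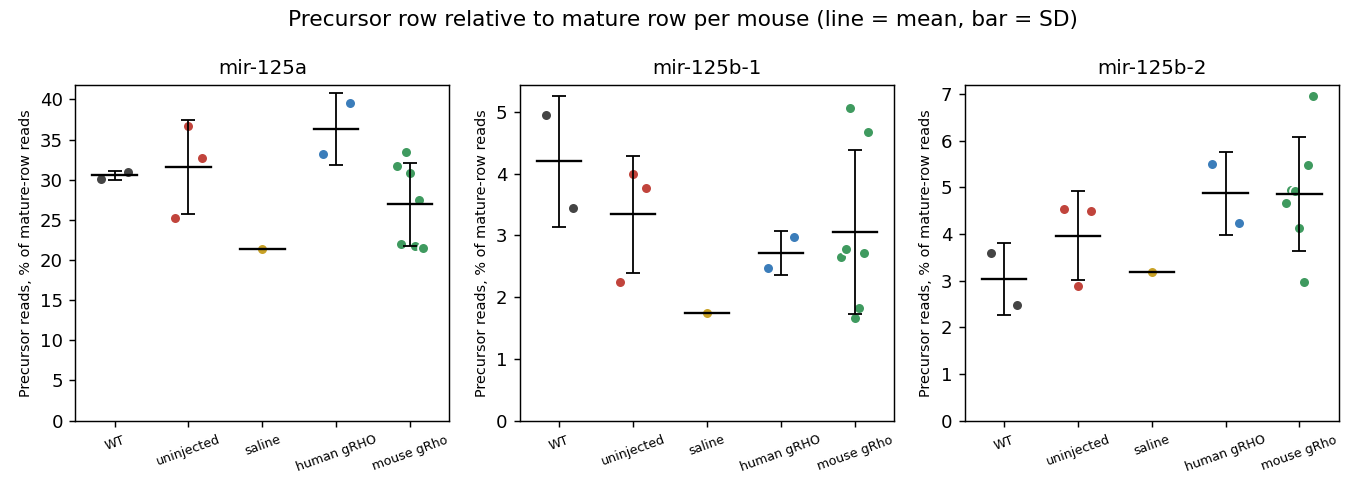
Precursor reads as a percentage of mature-row reads (vertical axis, scale differs by panel) for the 3 miR-125 loci in each mouse of the 5 groups. Points are mice, lines means and bars SD; mir-125a runs from 21.4% to 39.5%, and the other loci stay below 7%.

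Across the 15 mice the rows of the miR-125b copies had a Pearson's r of 0.79 on TMM-scaled log2 levels. mir-99b followed mir-125b-1 (r = 0.74) and mir-125b-2 (r = 0.70) more closely than its genomic neighbour mir-125a (r = 0.36). WT mouse 2 carried part of this: without it the values were 0.63, 0.45, 0.40 and 0.20. The partners on chromosome 16, mir-99a and mir-125b-2, had r = 0.07, and those on chromosome 9, mir-100 and mir-125b-1, had r = -0.15. The mice share groups and composition, and mir-99a and mir-100 add counting noise, so these values are descriptions.

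Among all 381 other tested rows, those most like mir-125b-1 were mir-221 (r = 0.88, n = 15), mir-199a-1 (r = 0.88) and mir-199a-2 (r = 0.87). The rows most like mir-125b-2 were mir-24-2 (r = 0.83), mir-214 (r = 0.82) and mir-7688 (r = 0.82). Without WT mouse 2 these values came to 0.69, 0.67 and 0.71, and those of mir-125b-1 to 0.80, 0.82 and 0.80. mir-99b was nearest to mir-193b (r = 0.88), mir-674 (r = 0.85) and mir-23b (r = 0.84), which without WT mouse 2 came to 0.61, 0.47 and 0.53. mir-125a was nearest to mir-342 (r = 0.84), mir-485 (r = 0.80) and mir-92b (r = 0.78), mir-100 to mir-1981 (r = 0.80), mir-199b (r = 0.74) and mir-27b (r = 0.66), and mir-99a to mir-3101 (r = 0.76), mir-201 (r = 0.61) and mir-449a (r = 0.61). No row was among the 3 nearest of more than 1 member, and the values of mir-99a rest on few reads.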

How the data were processed

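Trizol RNA of frozen retinas went into NEXT Flex small RNA v3 libraries, per the labels' protocols. The authors deposited raw read counts per miRNA locus and class, and counts per class of alignment. Per the submitters' processing notes DESeq2 was used. Coordinates come from matching names to GENCODE M21, since the sources used here give no aligner, annotation, build or rule of read assignment. All 23 matrix columns matched a sample.

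CPM were computed from the deposited counts over each library's reads classed as mature miRNA. Counts were summed per mouse and tested with edgeR 4.0.16 (R 4.3.3, quasi-likelihood, robust, TMM, 5 groups in 1 fit, at least 10 counts in at least 3 mice). P-values were adjusted by Benjamini-Hochberg over all 382 rows, with a threshold of 0.05. Rows that jump between levels were set aside (65 of the 337 that reach 30 counts). The edgeR test was tried on simulated data without TMM and without the filter, so these steps were not covered. Depth was 6980992 to 25046363 mature reads per mouse, and with at most 7 mice per group the median standard error over all rows was 0.44 to 0.73 (log2) between groups.

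Alternatives were DESeq2 1.42.0, other scalings, filters and samples in the fit, and leaving out single mice or libraries that stand apart. Rows named are all members, their cluster neighbours, loci with related seeds, and for each member the 3 rows with the highest Pearson r. Members and lists were chosen with earlier results of these data known. If titles do not name animals, p-values measure only the spread between these sums. The labels do not state what the leading title number means. All uninjected mice carry a single number, all human gRHO mice another, and the saline mouse its own. The numbers of the mouse gRho mice also recur in no other group. This number and the treatment thus cannot be told apart in any comparison among P23H+/- KI groups. The WT titles have another form, and whether they are 2 mice is not stated.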

Additional observations from a re-analysis of the deposited data

How the results depend on the processing

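The count of members called was 0 in all 7 comparisons and in the alternatives run, except without WT mouse 1. Each WT, uninjected and human gRHO mouse was left out in turn, but none of the 7 mouse gRho mice and no mouse of the comparison of eyes. Over these fits the count ranged from 0 to 2 for uninjected against WT and from 0 to 2 for mouse gRho against WT, with mir-99b and mir-125b-1 called at the upper end. Of 42 fold changes, 27 kept their direction in all alternatives and 15 turned in at least 1. The 30 turned values were small, at most 0.66 of their standard error, and the cause was not tested. Without TMM they were 0.058 for mir-100 (uninjected against WT), -0.11 for mir-100 and -0.13 for mir-125a (mouse gRho against uninjected), and -0.021 for mir-125a and -0.22 for mir-125b-1 (saline against uninjected). With no filter on low counts, mir-100 stood at -0.0078 and mir-125a at -0.0023 (mouse gRho against uninjected) and mir-125b-1 at -0.035 (saline). For mir-125b-1 in saline, keeping level-jumping rows gave -0.0089 and fitting the compared groups alone -0.020. Leaving out the 6 libraries rich in ribosomal RNA left only uninjected mouse 1 in its group. Without them, mir-125a stood at -0.095 (mouse gRho against uninjected) and mir-125b-1 at -0.16 (saline). In right against left, mir-100, mir-125a and mir-125b-2 then stood at -0.11, -0.013 and -0.033. The libraries poorest in photoreceptor rows were the right retina of mouse gRho mouse 1 and the left retina of uninjected mouse 2. Without both, mir-125a stood at -0.085 (mouse gRho against uninjected) and mir-125b-1 at -0.034 (saline). In right against left, mir-100 and mir-125b-2 then stood at -0.011 and -0.057.

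Over the fits that left out single mice in turn, 10 fold changes crossed 0. Against WT, mir-99a in uninjected mice ranged from -0.061 to 0.55. In mouse gRho against uninjected mice the ranges were -0.087 to 0.032 for mir-125b-1, -0.094 to 0.095 for mir-125a and -0.17 to 0.23 for mir-100. In human gRHO against uninjected mice they were -0.37 to 0.028 for mir-100, -0.54 to 0.097 for mir-99a and -0.28 to 0.070 for mir-125a. mir-125b-1 in saline ranged from -0.032 to 0.079. In human gRHO against mouse gRho, mir-99b ranged from -0.18 to 0.14 and mir-125a from -0.29 to 0.023.

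Leaving out the lone saline mouse could not be run. No paired analysis was possible because the titles give the groups no shared replicate numbers, and the eyes of 1 mouse are the only pairs. Depth limits mir-99a and mir-100 most, with medians of 15 and 45 reads per library.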

Other observations

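The row of mir-10a, a relative of miR-99/100, was set aside because it jumped between levels: it held 1004 reads (62.6 CPM) in WT mouse 2 and at most 2.79 CPM in the P23H+/- KI mice. The class named stemloop in the deposited rows held 15 reads for mir-99a, 10 for mir-125b-2 and 1 each for mir-125a and mir-125b-1, against 646 for let-7c-1, the neighbour of mir-99a on chromosome 16.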
